A study of Homo sapiens with 6 samples.

Results

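The genes described here are targets of the transcription factor p53 and kinases of the DNA damage checkpoint, 33 genes chosen by name. Every probe was taken whose symbol in the platform's annotation was one of these names. This gave 50 probes for 31 genes, out of 47231 probes on the array, and BTG2 and FDXR, for which no probe was listed under the symbol, were not analysed here. Of the 50 probes, 45 were bright enough to be tested, and each of the 31 genes kept at least 1 tested probe.

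The arrays came from cells of HeyA8-MDR, a human ovarian cancer line derived from HeyA8 and resistant to several drugs, in a study of chemically modified siRNAs. Cells had been treated with a control siRNA (siControl, 3 arrays, numbered 1, 2 and 4) or with an siRNA against GRAMD1B (siGRAMD1B, 3 arrays, numbered 2, 3 and 4). Both groups are the same drug-resistant line, and the labels used here give neither siRNA dose nor treatment time, nor the culture each array was taken from. The p-values therefore rest on array-to-array spread alone, part or all of which may be technical. GRAMD1B is a sterol transfer protein anchored in the endoplasmic reticulum.

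p53 is held at a low level in unstressed cells by MDM2 and MDM4, and DNA damage releases it through phosphorylation by ATM, ATR, CHEK1 and CHEK2. Released p53 switches on genes that stop the cell cycle, repair or tolerate DNA lesions, adjust metabolism and redox balance, or lead to cell death, together with MDM2 and other genes that switch p53 off again. Many of these genes also answer to other factors, so that a change in one of them is not by itself a measure of p53 activity.

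Each array gave an intensity for every probe, with a median of 102.7 to 128.8 and a lowest value of 71.74 to 89.84. All values below are normalized log2 intensities, and all differences are siGRAMD1B minus siControl on that log2 scale, with the standard error (SE) of the fit. The values are compressed near the floor, so that differences of dim probes are understated. The 1 GRAMD1B probe read 6.42, 6.41 and 6.57 in siControl and 6.26, 6.23 and 6.17 in siGRAMD1B, and its difference of -0.25 did not pass over all tested probes (limma adjusted p = 0.15). Among markers of ovarian or epithelial carcinoma, PAX8 and KRT8 were bright (siControl means 10.24 and 11.09), and KRT18 read 8.20 at its brightest probe. WT1 was dim at 6.76, and EPCAM at 6.42 and the untested KRT19 and MUC16 lay near the array median of 6.27. VIM, on the same list but not particular to epithelial cells, read 14.56. Of the 9 tested genes that mark leukocytes, endothelium, fibroblasts or red cells, CD68 (0.37) and VWF (0.38) passed upward and none passed downward, and their part in the results was not tested. Of the leukocyte genes, CD68 was bright at its brightest probe, with means of 11.40 in siControl and 11.78 in siGRAMD1B. CD14 was dim (6.66 and 6.53), and the pan-leukocyte gene PTPRC stayed at the floor, with means of 6.19 and 6.17. Of the endothelial genes, PECAM1 (6.20 and 6.27) and VWF (6.12 and 6.50) lay near the floor, while CDH5 read 9.70 and 9.52.

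Promoters of the members are shown where they hold the p53 decamer, the 10-base unit that occurs as a tandem pair in p53 response elements. The windows, from 250 bases before to 50 after a gene start, come from RefSeq on the GRCh38.p14 build, and were present for 29 of the 33 genes, in 43 windows since several genes have more than 1 start. No window was used for GADD45A, RRM2B, TP53INP1 and PHLDA3. The decamer was searched on both strands in its usual degenerate form, with no mismatch and no overlap with another motif required, and it was found in 6 of the 43 member windows (14.0%) against 6.63% of all 35116 windows in the table. The DDB2 window (chr11:47214724-47215023, plus strand) held 2 decamers separated by 1 base, and the SESN1 window (chr6:109008939-109009238, minus strand) held 1. In both sequences the decamers are in capitals, and the last 50 bases follow the annotated start.
DDB2: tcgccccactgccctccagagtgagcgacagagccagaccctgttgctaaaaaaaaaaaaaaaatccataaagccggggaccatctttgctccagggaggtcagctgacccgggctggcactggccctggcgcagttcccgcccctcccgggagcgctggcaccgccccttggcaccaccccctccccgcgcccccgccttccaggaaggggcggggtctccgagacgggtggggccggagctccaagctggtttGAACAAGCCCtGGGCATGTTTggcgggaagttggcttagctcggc
SESN1: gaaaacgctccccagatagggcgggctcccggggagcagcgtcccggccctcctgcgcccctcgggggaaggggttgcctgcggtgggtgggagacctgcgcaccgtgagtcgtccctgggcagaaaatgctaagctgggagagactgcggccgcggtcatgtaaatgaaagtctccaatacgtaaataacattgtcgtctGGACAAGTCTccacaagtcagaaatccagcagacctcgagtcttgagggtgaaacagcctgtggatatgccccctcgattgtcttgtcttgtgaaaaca
Shorter stretches show the decamer of PLK2 (chr5:58460184-58460243, minus strand), AEN (chr15:88621281-88621340, plus strand) and EI24 (chr11:125569442-125569501, plus strand), again in capitals.
PLK2: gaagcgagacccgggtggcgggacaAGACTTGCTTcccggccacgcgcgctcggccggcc
AEN: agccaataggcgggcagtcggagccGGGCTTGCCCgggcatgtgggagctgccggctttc
EI24: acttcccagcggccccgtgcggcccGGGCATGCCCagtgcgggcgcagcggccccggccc
The sixth match lay in an FDXR window. The shorter letters CATG, the core of many p53 sites, occurred in 39.5% of member windows and 54.9% of all windows, and TTTGAA, the cell cycle homology element, in 9.30% and 15.2% (both strands, with some matches of either overlapping a decamer). These are matches of letters and not measured binding.

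Between siGRAMD1B and siControl, some members rose and others fell. The DNA repair gene XPC, the death-associated membrane protein gene PERP and the checkpoint kinase gene ATM rose, while the growth arrest gene GADD45B, the cyclin gene CCNG1 and the sestrin gene SESN1 fell. The central feedback gene MDM2 differed by -0.02 ± 0.10 (SE) and the arrest gene GADD45A by 0.15 ± 0.10, and neither passed. Counted by the brightest tested probe of each gene, 3 of 31 rose and 3 fell, and the other 25 missed a limma adjusted p under 0.05. That is 19.4% called, against 9.47% of the 14261 genes tested in the same way (5.72% higher and 3.74% lower), and against 7.11% of all tested probes. The members are mostly bright, and bright genes were called more often. Of genes whose brightest probe lay above the 75th percentile of all probes, 14.6% were called, and 6 of the 27 members in that range were (22.2%). The members were chosen with earlier results of these data known, so these shares are a description and were not tested. The median difference was -0.02 over the 31 members and 0.01 over all genes, with 14 members above 0 and 17 below. The median size of the difference, sign aside, was 0.12 for the members and 0.12 for all genes. In bulk RNA, a lower signal cannot be told apart between fewer cells with a transcript and less transcript per cell.

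**Figure D1:**
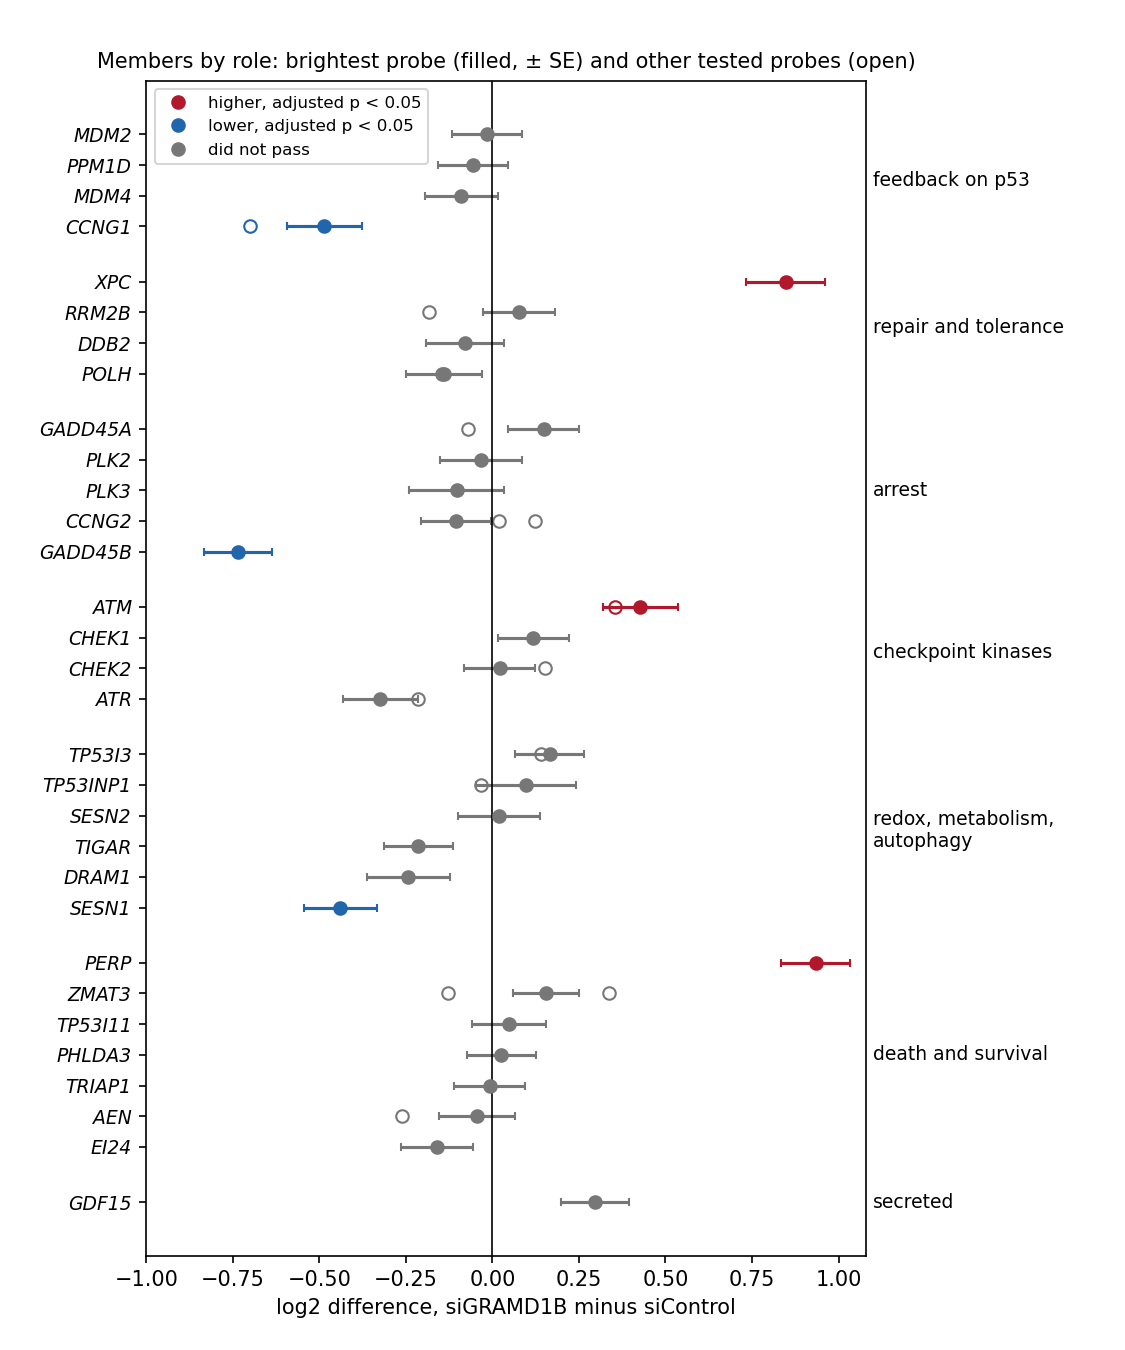
Each row is a gene and the horizontal axis is the log2 difference, siGRAMD1B minus siControl. Filled points are the brightest probe with its SE and open points are further tested probes. Red and blue mark probes past an adjusted p of 0.05 and grey those that did not pass. PERP and XPC lie near 0.93 and 0.85 and GADD45B near -0.74, while most members lie between -0.25 and 0.17.

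**Figure D2:**
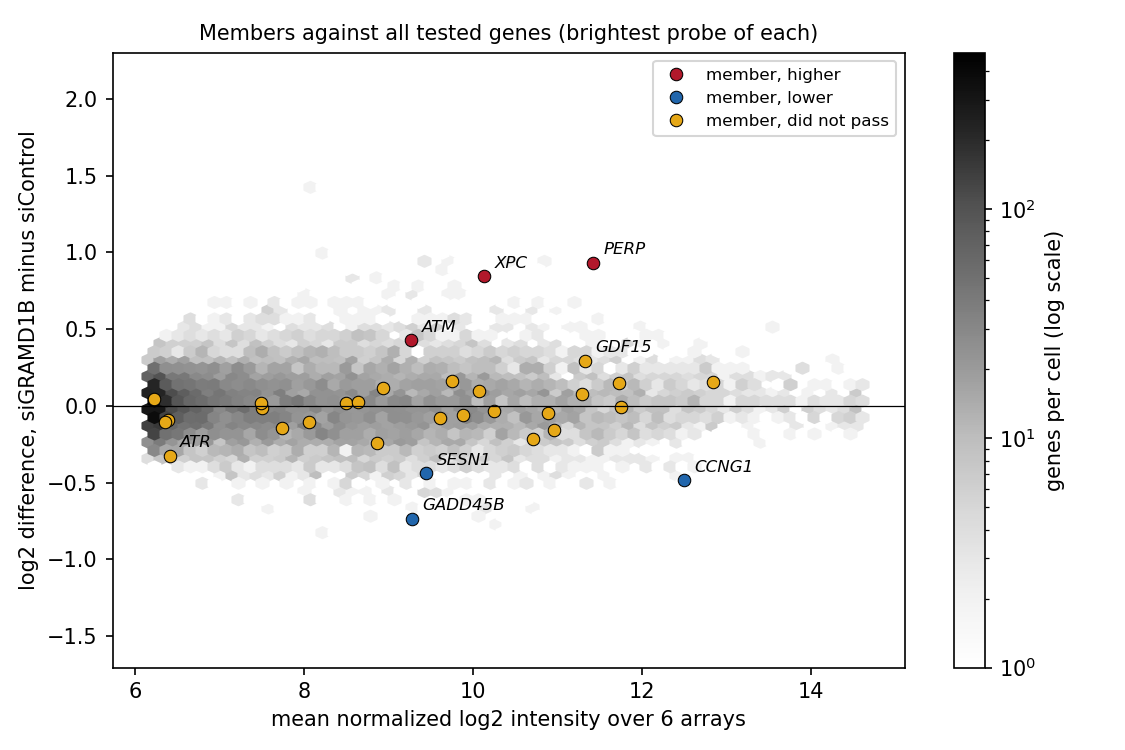
Mean log2 intensity over the 6 arrays (horizontal) against log2 difference (vertical), with the density of all 14261 tested genes in grey and the 31 members as points. Member genes lie from the floor to the bright end, and the 6 called members lie at mean levels between 9.27 and 12.50.

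Among the repair and damage tolerance genes, XPC rose and the other 3 did not pass. XPC, which recognises helix-distorting lesions for nucleotide excision repair, read 9.89, 9.46 and 9.78 in siControl, against 10.60, 10.61 and 10.46 in siGRAMD1B. The lowest siGRAMD1B array stood above the highest siControl array by more than the range of either group. The unnormalized intensities were 870.6, 745.0 and 1022 with siControl, against 1633, 1789 and 1249 in siGRAMD1B. The difference was 0.85 ± 0.11 (SE), or 1.80-fold (limma adjusted p = 0.00012). DDB2, which binds ultraviolet lesions ahead of XPC in the same repair pathway, read 9.85, 9.69 and 9.41 in siControl, against 9.51, 9.62 and 9.58 in siGRAMD1B. The groups overlapped, and the difference of -0.08 ± 0.11 did not pass (limma adjusted p = 0.78). The paired decamers shown above lie in a DDB2 window, and whether they bear on its level was not tested. POLH, the polymerase that copies past ultraviolet lesions, had differences of -0.14 and -0.15 at its pair of probes. RRM2B, a ribonucleotide reductase subunit that supplies nucleotides for repair, had 0.08 at its brighter probe and -0.18 at the other, and neither passed.

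Of the 5 tested arrest genes, GADD45B fell and 4 did not pass. GADD45B, a stress-induced protein that binds cell cycle and MAP kinase regulators, read 9.64, 9.67 and 9.62 in siControl, against 8.90, 9.01 and 8.81 in siGRAMD1B. The siControl arrays lay within a narrow band above every siGRAMD1B array. The difference was -0.74 ± 0.10 (SE; limma adjusted p = 0.00011), which corresponds to a ratio of 0.60. GADD45A, its paralog and the more classical p53 target, read 11.65, 11.76 and 11.56 in siControl and 11.81, 11.69 and 11.92 in siGRAMD1B, with overlapping groups. Its brighter probe differed by 0.15 (limma adjusted p = 0.48) and its other probe by -0.07 (limma adjusted p = 0.80). CCNG2, a cyclin linked to arrest, had differences of -0.10, 0.02 and 0.12 at 3 probes. The polo-like kinase genes PLK2 and PLK3 had -0.03 and -0.10. PLK3 was dim, and its siGRAMD1B replicate 4 (5.91) lay below the other 2 arrays of its group (6.53 and 6.46).

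Of the 4 genes that restrain p53, CCNG1 fell and MDM2, MDM4 and PPM1D did not pass. CCNG1, cyclin G1, which recruits a phosphatase that activates MDM2, read 12.61, 12.78 and 12.83 in siControl and 12.37, 12.31 and 12.08 in siGRAMD1B at its brighter probe. The groups did not overlap, and the difference was -0.49 ± 0.11 (SE; limma adjusted p = 0.0090), or -0.40 without siGRAMD1B replicate 4, where the call was lost (adjusted p = 0.070). The dimmer CCNG1 probe read 8.70, 8.87 and 8.96 against 8.12, 8.22 and 8.08, a difference of -0.70 ± 0.10 (limma adjusted p = 0.00028). Both probes therefore placed all siGRAMD1B arrays below all siControl arrays. MDM2, the ubiquitin ligase that degrades p53, read 7.45, 7.54 and 7.54 in siControl, against 7.63, 7.42 and 7.45 in siGRAMD1B. These values interleave, and the difference of -0.02 ± 0.10 did not pass (limma adjusted p = 0.96). A further MDM2 probe lay at the floor and was not tested. MDM4, the MDM2 partner that blocks the p53 activation domain, had a difference of -0.09 ± 0.11 from a dim probe. PPM1D, the phosphatase that reverses checkpoint phosphorylation, had -0.06 ± 0.10.

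Repair, arrest and feedback genes each held 1 called gene, upward in repair and downward in arrest and in feedback. The median difference was -0.0014 over 4 repair genes, -0.10 over 5 arrest genes and -0.07 over 4 feedback genes. Outside the called genes, the members of these roles lay between -0.14 and 0.15.

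**Figure D3:**
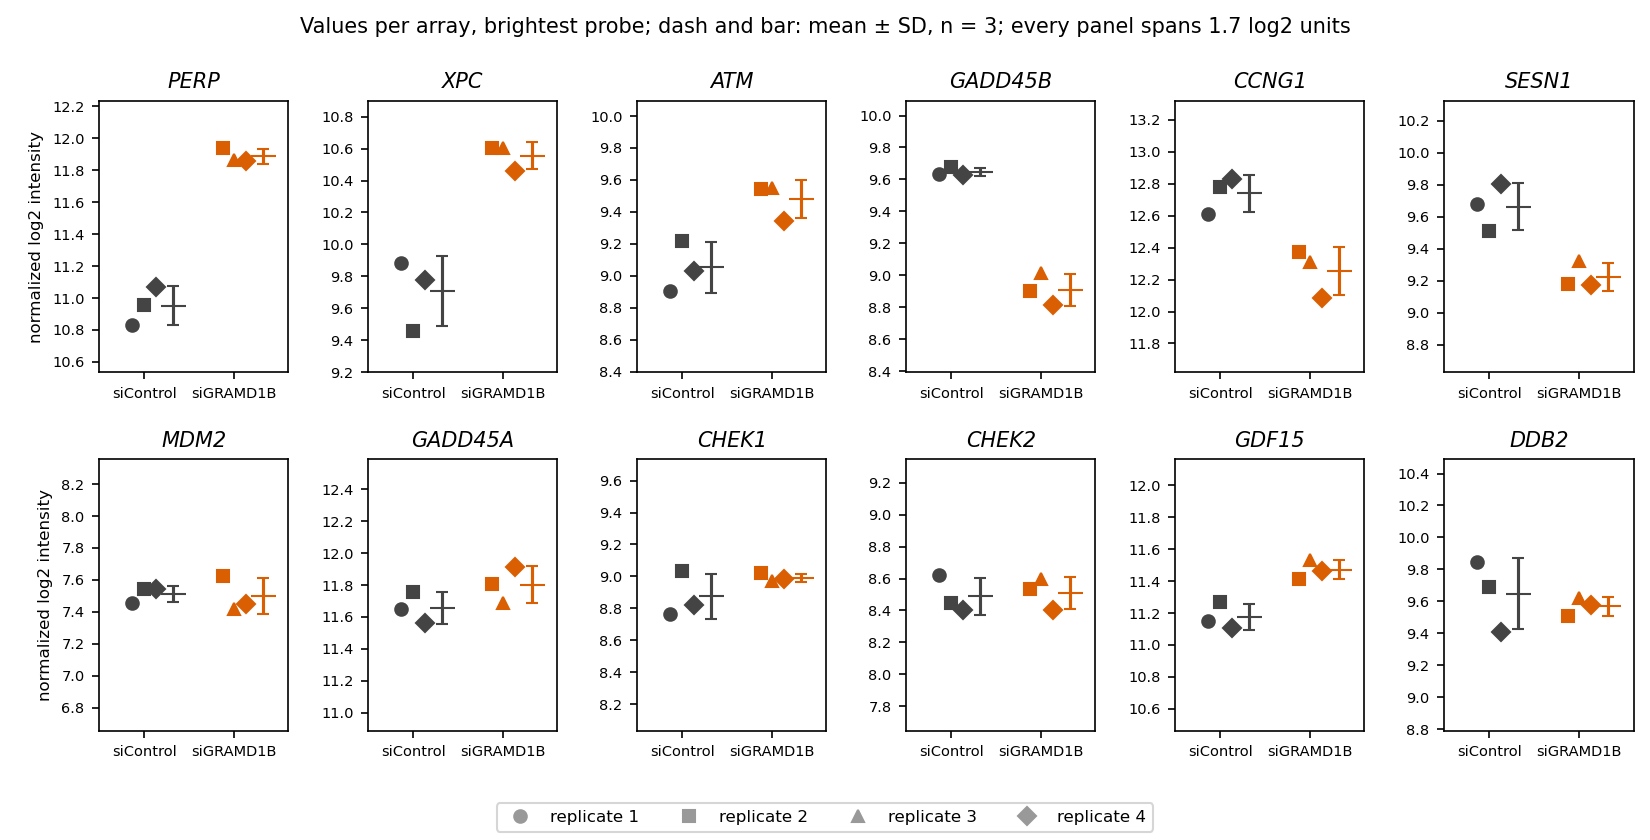
Normalized log2 intensity of the brightest probe of 12 members on each array, siControl in grey and siGRAMD1B in orange, with the replicate number as the symbol and the mean ± SD of 3 arrays beside them. Groups are apart in PERP, XPC, ATM, GADD45B, CCNG1, SESN1 and GDF15 and overlap in MDM2, GADD45A, CHEK1, CHEK2 and DDB2.

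Among the kinases of the damage checkpoint, ATM rose, ATR did not pass although its values were lower, and CHEK1 and CHEK2 did not pass. ATM, the kinase that responds to double-strand breaks, read 8.91, 9.22 and 9.03 in siControl and 9.54, 9.55 and 9.34 in siGRAMD1B at its brighter probe. The second ATM probe read 8.56, 8.74 and 8.78 against 9.03, 9.07 and 9.03. At both tested probes the groups did not overlap. The differences were 0.43 ± 0.11 (SE) and 0.35 ± 0.10 (limma adjusted p = 0.021 and 0.038). A further ATM probe, untested at the floor, differed by -0.07 with overlapping groups. The call at the brighter ATM probe was lost in 6 of 15 alternative settings, among them without siControl replicate 1 (0.35, limma adjusted p = 0.12), siGRAMD1B replicate 2 (0.40, adjusted p = 0.091) or siGRAMD1B replicate 3 (0.39, adjusted p = 0.090). The second ATM probe was less firm and lost its call in 9 of 15, including without siControl replicate 1 or 2 or any 1 of the siGRAMD1B arrays (0.29 to 0.37, limma adjusted p = 0.057 to 0.18). ATR, the kinase that responds to single-stranded DNA at stalled forks, was dim, with 6.50, 6.77 and 6.44 in siControl, against 6.36, 6.21 and 6.17 in siGRAMD1B. Its groups did not overlap, but the difference of -0.32 ± 0.11 did not pass (limma adjusted p = 0.083), except without siControl replicate 4 (-0.38, adjusted p = 0.049). A second ATR probe differed by -0.22 (limma adjusted p = 0.25), and another ATR probe, untested at the floor, by 0.18 in the opposite direction. CHEK1, the main effector kinase of ATR, read 8.76, 9.04 and 8.82 in siControl and 9.02, 8.97 and 8.99 in siGRAMD1B, with a difference of 0.12 (limma adjusted p = 0.59). CHEK2, the effector of ATM, had 8.62, 8.45 and 8.40 against 8.53, 8.60 and 8.40, a difference of 0.02, and 0.15 at its other tested probe. A further CHEK2 probe, untested at the floor, differed by 0.19 and was higher on every siGRAMD1B array.

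Of the 6 tested members with roles in redox balance, metabolism and autophagy, SESN1 fell and 5 did not pass. SESN1, a sestrin that restrains growth signalling through mTORC1, read 9.68, 9.51 and 9.81 in siControl, against 9.18, 9.33 and 9.17 in siGRAMD1B. The groups were apart, with a difference of -0.44 ± 0.11 (SE; limma adjusted p = 0.015). That call was lost in 5 of 15 settings, including without siControl replicate 1 (-0.43, adjusted p = 0.057), siGRAMD1B replicate 2 (-0.42, adjusted p = 0.068) or siGRAMD1B replicate 4 (-0.41, adjusted p = 0.073). Its paralog SESN2 read 7.47, 7.65 and 7.31 in siControl and 7.31, 7.47 and 7.71 in siGRAMD1B, with a difference of 0.02. TIGAR lowers a fructose bisphosphate that activates glycolysis, and so slows that pathway. It was below siControl on every siGRAMD1B array, but its difference of -0.21 did not pass (limma adjusted p = 0.24). DRAM1, a lysosomal membrane protein that promotes autophagy, had -0.24 (limma adjusted p = 0.28), and without siControl replicate 2 it passed (-0.39, adjusted p = 0.040). TP53I3, an oxidoreductase linked to p53-dependent death, had 0.17 and 0.14 at its probes. Its brighter probe was above siControl on every siGRAMD1B array, but neither probe passed. TP53INP1, a stress protein that acts with p53 and in autophagy, had 0.10 and -0.03.

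Of the 7 death and survival members, PERP rose and 6 did not pass. PERP, a tetraspan membrane protein of desmosomes that also takes part in p53-dependent apoptosis, had the largest difference of any member. It read 10.83, 10.95 and 11.07 in siControl, against 11.94, 11.86 and 11.85 in siGRAMD1B. The groups were separated by more than the spread of either. The unnormalized intensities were 1653, 2106 and 2425 against 4011, 4120 and 3282. The difference was 0.93 ± 0.10 (SE), or 1.91-fold (limma adjusted p = 1.01e-05).

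The remaining death and survival members had differences between -0.16 and 0.15 at their brightest probes. EI24, an endoplasmic reticulum protein linked to death and autophagy, had -0.16, and AEN, an apoptosis-enhancing nuclease, had -0.04. The dimmer AEN probe was lower on all siGRAMD1B arrays, at -0.26 (limma adjusted p = 0.12). TP53I11 and PHLDA3, a repressor of AKT, had 0.05 and 0.03, and TRIAP1, an inhibitor of apoptosis through mitochondrial lipid transfer, had -0.01. ZMAT3, an RNA-binding regulator of splicing and RNA stability, had 3 bright probes that read 0.15, -0.13 and 0.34, none past the threshold. At the brightest of these, every siGRAMD1B array lay above every siControl array. The ZMAT3 probes thus disagreed in sign, as did those of GADD45A, RRM2B, CCNG2 and TP53INP1. All tested probes lay on the same side of 0 in 7 of the 12 members with 2 or more of them. The secreted stress cytokine GDF15 read 11.15, 11.27 and 11.11 in siControl, against 11.41, 11.53 and 11.46 in siGRAMD1B. The groups did not overlap, but the difference of 0.30 ± 0.10 stopped short of the threshold (limma adjusted p = 0.080) and passed in 4 of 15 alternative settings.

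Separation of the arrays was commoner than a call. In 11 of the 31 members the 3 arrays of a group were all above or all below those of the other group, against 28.4% of all genes tested, and 9 of 31 had an unadjusted limma p under 0.05, against 23.4%. As percentages of the 31, these counts lie a little above those shares and were not tested against them. For any single gene, the exact 2-sided permutation test over the 6 arrays cannot go below p = 0.10, which is the value for XPC, PERP, ATM, GADD45B, CCNG1 and SESN1.

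**Figure D4:**
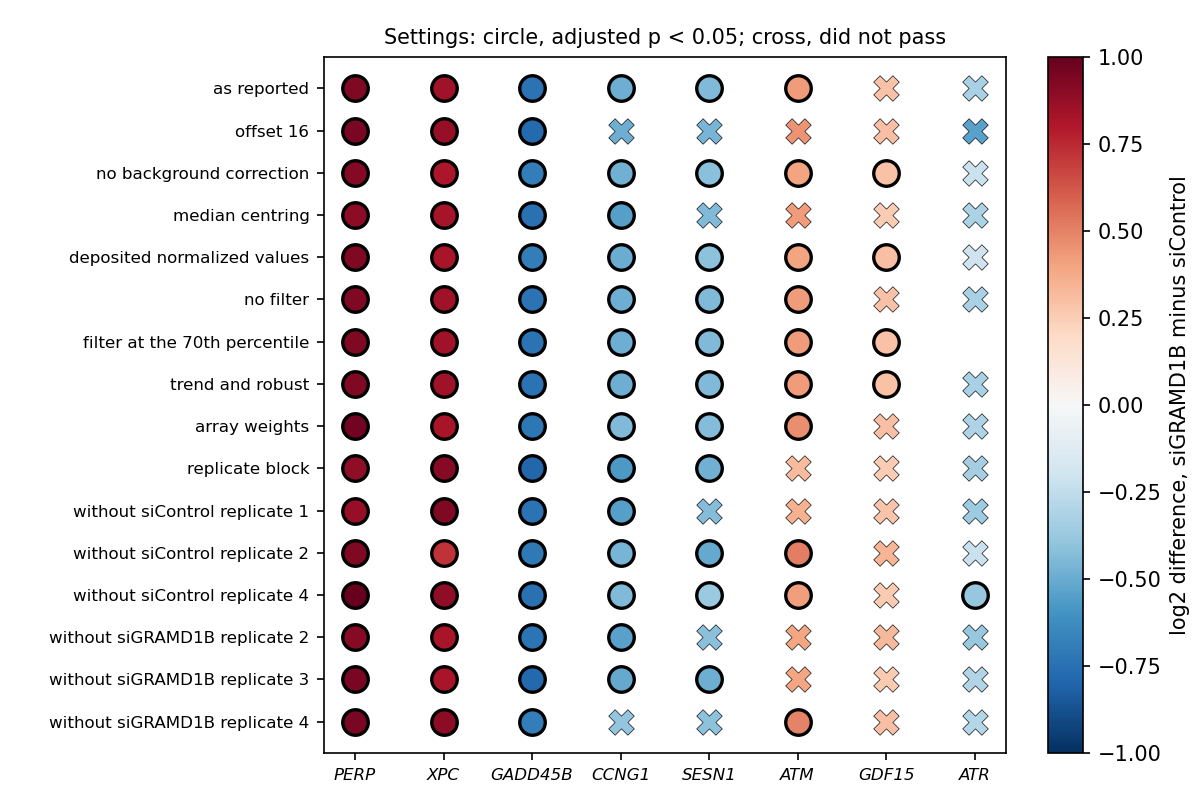
Rows are the reported setting and 15 alternatives, columns are 8 members, and colour is the log2 difference (siGRAMD1B minus siControl). Circles passed an adjusted p of 0.05 and crosses did not. PERP, XPC and GADD45B passed in every row, and CCNG1 in all but 2 (offset 16 and without siGRAMD1B replicate 4).

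In 8 pairs of paralogs or pathway partners, chosen after their values were seen and so given as a description, the difference of the first gene's change from that of the second was computed per array. The value for GADD45B minus GADD45A was -0.88 (SD of the arrays 0.07 in siControl and 0.22 in siGRAMD1B). XPC changed by 0.93 more than DDB2, ATM by 0.75 more than ATR, and the value for CCNG1 minus CCNG2 was -0.38. In these 4 pairs the arrays of the groups did not overlap, which gives p = 0.10 in the exact 2-sided permutation test (0.20 adjusted over the 8 pairs). That is the smallest p this design allows, so no pair could pass. SESN1 minus SESN2 was -0.46, with overlapping arrays (exact permutation p = 0.20). The pairs CHEK1 and CHEK2, MDM2 and MDM4, and PLK2 and PLK3 differed in change by 0.10, 0.07 and 0.07, with overlapping arrays.

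**Figure D5:**
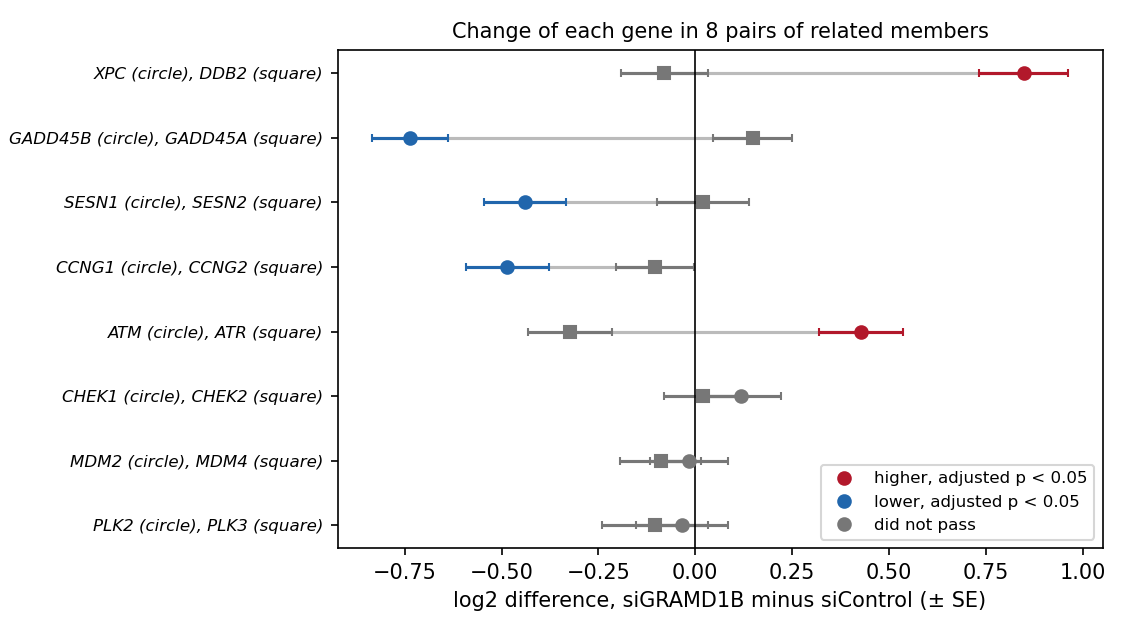
Each row is a pair of related members with the log2 difference (siGRAMD1B minus siControl) and SE of the first gene (circle) and the second (square), in red or blue where the adjusted p was under 0.05. The points lie farthest apart for XPC and DDB2, for GADD45B and GADD45A and for ATM and ATR.

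Of 22 further p53 pathway genes tested, 2 were higher, 1 was lower and 19 did not pass (median 0.09), which is 13.6% called against 9.47% of all genes. SFN, which encodes 14-3-3 sigma, a p53 target that holds cells in G2, read 9.53, 9.36 and 9.28 in siControl, against 10.06, 10.17 and 10.12 in siGRAMD1B. Its difference was 0.73 ± 0.10 (SE; limma adjusted p = 0.00017). The other 2 calls, the death genes BBC3 (0.34, limma adjusted p = 0.042) and FAS (-0.41, limma adjusted p = 0.043), were lost in 9 and 8 of 15 settings. Without siControl replicate 1 or any 1 siGRAMD1B array, BBC3 had 0.31 to 0.38 and FAS -0.42 to -0.27, and BBC3 was also lost without siControl replicate 4 (0.31). CDKN1A, the p21 inhibitor that carries out p53-dependent arrest, read 12.91, 12.85 and 13.02 in siControl, against 12.78, 12.80 and 12.70 in siGRAMD1B. These groups were apart by a small margin, and the difference of -0.17 ± 0.10 did not pass (limma adjusted p = 0.37). The dimmer CDKN1A probe differed by 0.12 in the opposite direction, with overlapping groups (limma adjusted p = 0.66). PMAIP1, which encodes the death protein NOXA, had -0.31 at its brighter probe (limma adjusted p = 0.061) and -0.33 at the other, which passed (adjusted p = 0.044). BAX, RPS27L and TNFRSF10B, further p53 targets, had 0.10, -0.02 and 0.10 at their brightest probes, and none passed. Over the 22 genes, arrays of the groups did not overlap in 10 (6 above and 4 below), against 28.4% of all genes. An unadjusted limma p under 0.05 was found in 8 of the 22, against 23.4% of all genes, and these counts were not tested.

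Of 19 further damage checkpoint genes tested, 2 were higher, 1 was lower and 16 did not pass (median 0.03), which is 15.8% called against 9.47% of all genes. With only 3 calls in each of these lists, neither share sets its list apart, and neither was tested. The 14.6% of bright genes called is not a like share, since both lists also hold tested genes below the 75th percentile. TIMELESS, which protects replication forks and aids ATR signalling to CHEK1, read 9.55, 9.59 and 9.58 in siControl and 10.19, 10.17 and 10.02 in siGRAMD1B, a difference of 0.55 ± 0.10 (SE; limma adjusted p = 0.0016). Its partner TIPIN had 0.33 and did not pass (limma adjusted p = 0.088). WEE1, the kinase that holds CDK1 inactive before mitosis, read 8.22, 8.35 and 8.45 against 7.86, 7.81 and 7.57, a difference of -0.59 ± 0.11 (limma adjusted p = 0.0020). CDC25A, a phosphatase that activates CDKs and is degraded after damage, read 8.65, 8.73 and 8.72 against 9.09, 9.15 and 9.17 at its brighter probe, a difference of 0.44 ± 0.10 (limma adjusted p = 0.0085), while its dimmer probe had -0.06. The CDC25A call was lost in 3 of 15 settings (limma adjusted p up to 0.14), and those of TIMELESS and WEE1 in 0. Arrays of the groups did not overlap at any of the called probes of TIMELESS, WEE1 and CDC25A. The related phosphatase genes CDC25B and CDC25C had 0.16 and -0.11 and did not pass, nor did BRCA1 at 0.16.

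Set beside the promoter matches, the 5 tested genes with a decamer window did not change alike. SESN1 fell, and DDB2 (-0.08), PLK2 (-0.03), AEN (-0.04) and EI24 (-0.16) did not pass. The other 5 called members, XPC, PERP, ATM, GADD45B and CCNG1, had no decamer in the windows used here, which says nothing of sites elsewhere.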

How the data were processed

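Total RNA was labelled and hybridised to Illumina bead arrays, and the submitters' processing notes name BeadStudio. The deposited non-normalized table holds a linear intensity per probe; per the file headers its array names stand 1 field too far right and were shifted back, which was checked against the second table (Spearman's rho 1 with the same array, at most 0.854 with another). That table holds the authors' log2 values, normalized between arrays by a method not given in the sources used here (median 6.858). Columns of other samples numbered 0. No detection p-values were present, so limma 3.58.1 (R 4.3.3) was used with normexp (offset 50), quantile normalization and log2. Probes with a mean above the 40th percentile (6.158), 28338 in all, were tested with lmFit and eBayes, 2-sided, with Benjamini-Hochberg adjustment over all of them and a threshold of 0.05. Moderation gave 17.95 degrees of freedom. The number of arrays, 3 per group, limits the precision. The brightest tested probe stood for a gene in counts.

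Symbols came from the platform annotation, where 30113 probes had 1 symbol, 8 several and 17110 none here, and the 50 member symbols were the same in RefSeq by Entrez ID. By rule, values per array were given for members past the threshold at any tested probe and for MDM2, GADD45A, GDF15, CHEK1, CHEK2, ATM, ATR, XPC and DDB2, and outside the members GRAMD1B, CDKN1A and called genes of 2 pathway lists were named. Outside that rule, chosen after the values were seen, are the array values of SESN2 and PLK3 and the names BAX, RPS27L, TNFRSF10B, TIPIN, CDC25B, CDC25C and BRCA1. Promoters were to be printed for called members; only that of SESN1 was, and DDB2, PLK2, AEN and EI24 were added after the matches were seen. The members, roles, lists and pairs were chosen with earlier results of these data known. The fit was tested on simulated data. Alternatives were other offsets, normalizations, filters, variance models, the replicate number as a block, leaving out each array, and the mean over the probes of a gene.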

Additional observations from a re-analysis of the deposited data

How the results depend on the processing

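PERP, XPC, GADD45B and the dimmer CCNG1 probe kept their direction and passed in each of the 15 alternatives run. PERP, XPC, GADD45B and SESN1 had only 1 probe each, so their calls could not be compared between probes. The brighter CCNG1 probe was lost in 2, SESN1 in 5, ATM in 6 and the second ATM probe in 9, each with its direction kept, and the cause was not tested. An offset of 16 left 455 higher and 235 lower probes, and 1 member was lower (GADD45B). Median centring gave 603 and 419 probes, and the fit with the replicate number as a block 574 and 411. That replicate block compares only numbers 2 and 4, which both groups hold. Deviations from the group means correlated at 0.0245 for number 2 and -0.155 for number 4, against -0.177 to 0.189 for unlike numbers. The labels do not say what a number marks, and these values did not establish a pairing. Leaving out an array in turn gave 671 to 1157 higher and 450 to 1039 lower probes, and 1 to 4 lower members. Only GADD45B remained lower without siGRAMD1B replicate 4. Members near 0 changed sign without passing. MDM2 became 0.0060 with median centring and 0.00034 with array weights, MDM4 0.0076, TP53INP1 -0.075 and TRIAP1 0.012 with the block, and SESN2 -0.0030 with array weights. Over the left-out arrays the ranges were -0.080 to 0.025 for MDM2, -0.10 to 0.011 for PPM1D, -0.20 to 0.018 for DDB2, -0.14 to 0.076 for PLK2, -0.21 to 0.093 for PLK3, -0.023 to 0.087 for CHEK2, -0.089 to 0.11 for SESN2, -0.031 to 0.29 for TP53INP1, -0.14 to 0.056 for AEN, -0.036 to 0.071 for PHLDA3, -0.045 to 0.11 for TP53I11 and -0.090 to 0.046 for TRIAP1. GDF15 passed with no background correction, with the deposited values, with the filter at the 70th percentile and with trend and robust options (adjusted p 0.020 to 0.041), and by the mean over the probes of a gene 4 members were higher and 3 lower. ATM minus ATR moved from 0.75 to 0.99 with the offset of 16. The dim probes of MDM4, PLK3, ATR and TP53I11 lie near the floor, where small changes cannot be seen.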
